A study of Mus musculus with 96 samples.

Results

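Among 16 single cells sorted as haematopoietic stem cells (HSCs) from the mouse fetal liver at E14.5 (E, embryonic day), 4 held a broad set of red cell transcripts. These 4 wells were chosen by their own reads: each had more than 100 CPM (read counts scaled to the same total in every well) of Slc4a1, the gene of the band 3 anion exchanger of the red cell membrane. They were wells 3, 8, 13 and 16 of the group, 4 of the 96 wells in the series, and they are compared here with the other 12 wells of the group. The Slc4a1 level was 345 CPM of all reads in well 3, 223.2 in well 8, 486 in well 13 and 220.7 in well 16. Just outside the threshold there was nothing to separate, since Slc4a1 had no read in any of the other 12 wells or in the remaining 80 wells of the series.

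The series holds C57BL/6 mouse cells from 4 sources: 48 wells of E11.5 aorta-gonad-mesonephros pre-HSCs, 16 wells of E11.5 yolk sac pre-HSCs, 16 wells of E12.5 fetal liver HSCs and the 16 wells of E14.5 fetal liver HSCs. No allele, transgene or treatment is named for any group. The E14.5 cells were gated as Ter119 negative, Sca-1 positive, c-kit positive, CD48 negative and CD150 positive, and the E12.5 cells as Ter119 negative, Sca-1 positive, c-kit positive and EPCR positive. The E11.5 cells of both tissues were gated as Ter119 negative, CD11b negative, CD144 positive, c-kit positive and EPCR positive. RNA of each cell was amplified by SMART-Seq, a full-length cDNA method, and values are read counts per gene without molecular identifiers.

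Red cells form from stem cells through progenitors that switch on GATA1 and KLF1, transcription factors that drive globin, haem and membrane genes together. Fetal liver is the main site where definitive red cells form in the mouse embryo, and its stem cells multiply there before they seed the bone marrow. The Ter119 antibody used in these gates marks late red cell precursors.

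No animal or litter is given for any well, so the 4 wells on one side and the 12 on the other count as 1 sample each, and the sides were made from Slc4a1 reads. Everything below is therefore a description: no p-value is given, and a difference is set against the spread among wells by whether the sides overlap. Levels are CPM of the reads left after globin reads were taken out, in the order of wells 3, 8, 13 and 16. Differences are log2 ratios of the pooled level in the 4 wells to that in the 12, with 1 CPM added to each. Intervals are exact 95% Poisson intervals of the pooled reads, which cover counting error only, because amplified reads are not independent molecules.

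The E14.5 wells held 626645 to 1926882 reads. The 4 wells held 938669 to 1259985 reads, within the range of the others, and 3859 to 5707 genes with a non-globin read against 2920 to 6103 in the others. Globin genes took 14.98%, 12.9%, 4.42% and 23.1% of all reads in the 4 wells. In the other 12 the share was 0.00139% to 0.151%, and the highest in the other 80 wells was 1.34%, in 1 E12.5 well. Mitochondrial transcripts made up 0.357% to 0.912% of non-globin reads in the 4 wells and 0.339% to 0.744% in the others. Ribosomal protein genes made up 4.15% to 7.67% against 4.29% to 9.22%, and well 16 was the lowest of all 16 wells. No pair of the 16 wells held identical counts.

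Most globin reads, which were left out of the totals, were of adult genes. Hba-a1, an adult alpha-globin gene, took 7.15%, 7.01%, 2.09% and 10.9% of all reads, and Hbb-bt, an adult beta-globin gene, 1.79%, 1.07%, 0.509% and 2.68%. Reads of Hba-a1 and its near-identical copy Hba-a2 may have been divided between them in the counting. Hbb-bh1, an embryonic beta-type gene, was 1.12% of reads in well 16 and 0.00476% in well 13, was also read in well 3 and had no read in well 8. The embryonic genes Hbb-y and Hba-x had no read in the 4 wells.

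Of 88 erythroid list genes with at least 30 reads over the 16 wells, 54 were at least 4-fold higher in the 4 wells, 2 were at least 4-fold lower and 32 lay between. Over all 10414 genes with that many reads, 10.5% were at least 4-fold higher and 29.8% at least 4-fold lower. Every one of the 4 wells stood above every other well for 27 of the 88 genes, Slc4a1 included, and for 0.605% of all genes. Because the wells were selected on Slc4a1 in this same contrast, nothing is read from these shares. The median log2 ratio was 3.16 for the erythroid lists and -0.60 for all genes. Scaling moved the median of all genes to -0.80 with globin reads kept in the totals and to -0.36 with median-of-ratios size factors, and ratios near 0 are to be read against that shift.

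The erythroid signal was broad within each well. Of the 88 genes, 74, 56, 58 and 70 reached 10 CPM in wells 3, 8, 13 and 16, against 21 to 38 in the other 12 wells, with a median of 29. With every well thinned to 790520 non-globin reads, which leaves out 2 of the other wells, 79, 62, 65 and 73 of the genes had a read in the 4 wells and 24 to 42 in the others. Slc4a1 reads thus came together with reads of most of the list in all 4 wells, well 13 included. Of the 88 genes, 19 had no read in the other 12 wells and so met the read minimum only through the 4 wells.

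**Figure D1:**
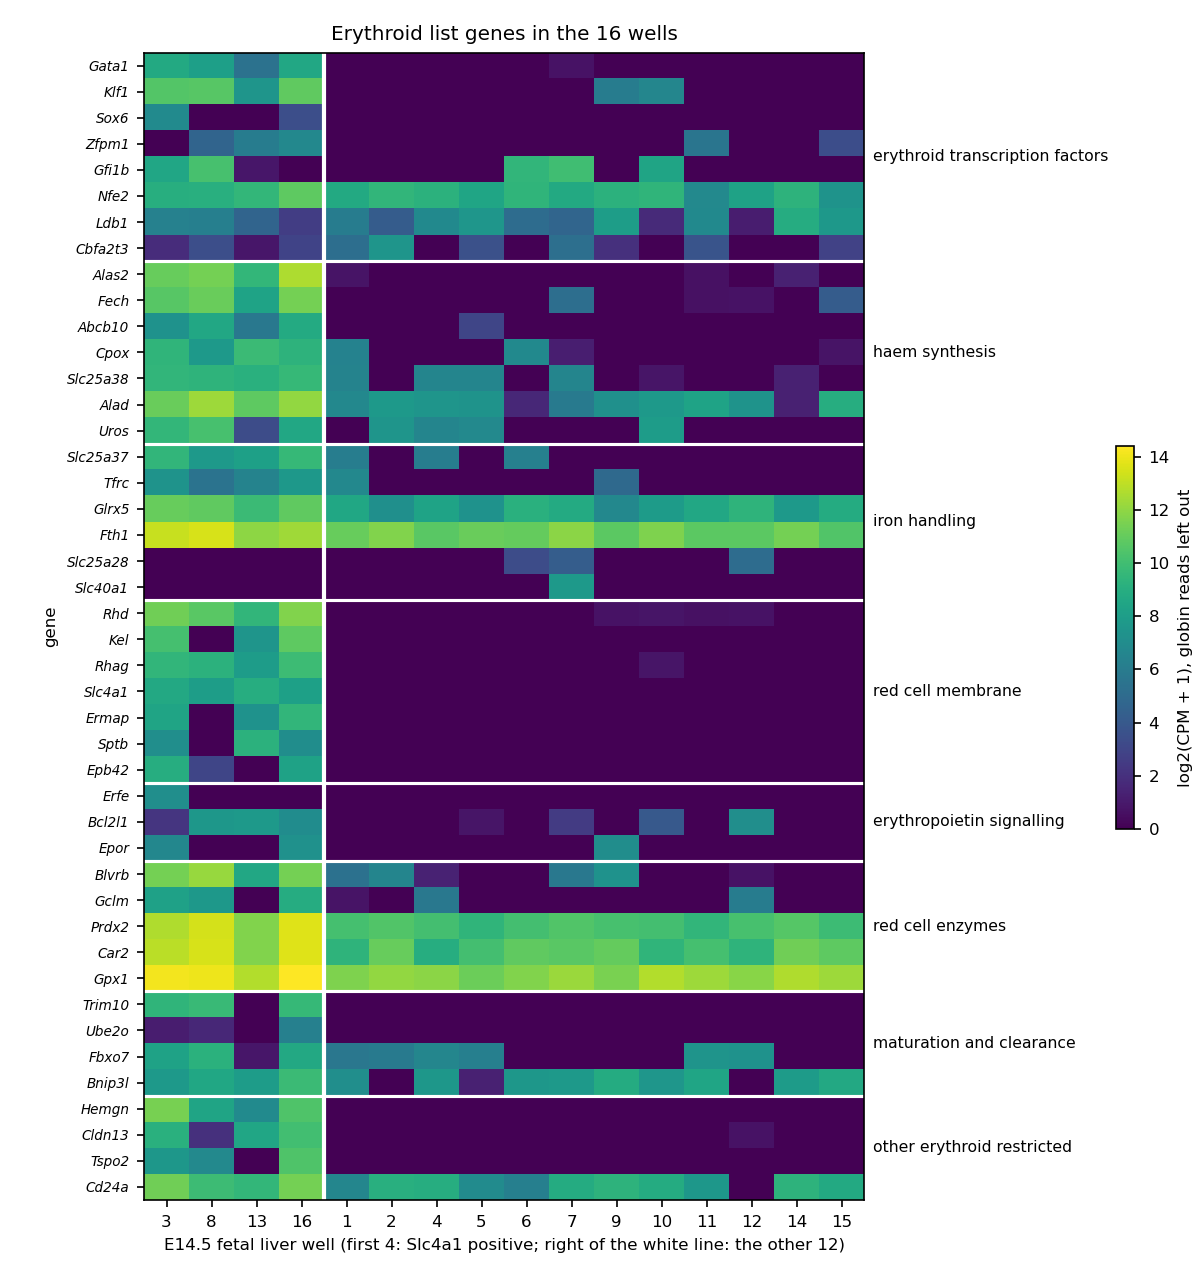
Level of 44 of the erythroid list genes with at least 30 reads, those named in the text, as log2(CPM + 1) with globin reads left out, in the 4 wells with Slc4a1 reads (left of the white line) and the other 12. Colours compare wells of 1 gene, not genes with each other. Membrane genes such as Rhd and Rhag are at or near 0 in all 12 other wells, whereas Nfe2, Glrx5, Fth1 and Gpx1 are read in every well.

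Among 12 erythroid transcription factor genes, 4 were at least 4-fold higher and none at least 4-fold lower. The count of higher genes was 3 of 11 without well 3. The count of lower genes was 2 without well 8 and 1 with the mean of the wells' CPM. Gata1 (chrX:7959260-7978071, GRCm38), the master regulator of the lineage, stood at 432, 279, 41.5 and 393 CPM. In the 12 other wells it had 1 read in all, 0.657 CPM in well 7. The pooled level was 259.5 CPM (95% interval 244 to 276) against 0.0616, a log2 ratio of 7.94.

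Klf1 (chr8:84901928-84905291), which activates the adult beta-globin gene and many membrane genes, stood at 1491, 1597, 183.5 and 1922 CPM. It was also read in 2 of the other wells, at 65.4 CPM in well 9 and 97.7 CPM in well 10, both below the lowest of the 4. Its pooled level was 81.3-fold higher (95% interval 71.31 to 92.96). Wells 9 and 10 had no Slc4a1 read and no Gata1 read.

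The other factors divided by well. Sox6, which silences embryonic globin, was read in wells 3 and 16 at 118 and 10.1 CPM and in none of the 12. Zfpm1, which encodes the GATA1 partner FOG1, stood at 0, 24.4, 64.8 and 106 CPM, read in 3 of the 4 wells and in 2 of the 12, with a log2 ratio of 2.87. Gfi1b, a repressor needed for red cells and megakaryocytes, stood at 369.6, 1179, 0.83 and 0 CPM, and reached 997 CPM in other well 7, so its sides overlapped. Nfe2, a regulator shared with megakaryocytes, was read in every one of the 16 wells, at 530.0, 540.2, 749 and 1829 CPM against a median of 518 and a highest of 706 in the others. The log2 ratio of Ldb1, a scaffold of the GATA1 complex, was -1.37, and that of Cbfa2t3, a corepressor of the same complex, was -1.62.

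All 12 genes of haem synthesis and its transporters were at least 4-fold higher, and for 9 of them the sides did not overlap. This was the only erythroid list apart from the 5 genes of the restricted group in which every gene reached 4-fold. The count was 11 without well 8, 11 without well 13 and 11 with globin reads in the totals. The summed level of the list was 16727, 27020, 8015 and 28553 CPM against 468 to 1796 CPM in the others. Well 13 was the lowest of the 4 and still more than 4-fold above the highest other well.

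Alas2 (chrX:150547375-150570638), the erythroid form of the enzyme that starts haem synthesis, stood at 2111, 2660.1, 747 and 6267 CPM. Over the 12 other wells it had 3 reads, with a highest of 1.46 CPM in well 14, and the ratio of the pooled levels was 14545 with a wide counting interval (4976 to 70541). Fech, which inserts iron into the ring at the last step, stood at 1621, 2212, 329.7 and 2654 CPM against at most 35.5. Wells 8 and 16 were high and well 13 low for both enzymes.

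Alad, an early enzyme of the pathway, was read in all 12 other wells as well, so its difference was one of degree. It stood at 2188, 4999.8, 1804 and 4374 CPM against a median of 169.6 and a highest of 509. Cpox, which acts late in the pathway, did not share the order of Alas2 and Fech. It was highest in well 13, at 684, 211.6, 915 and 634 CPM against at most 112. Slc25a38, the mitochondrial glycine carrier, varied least among these genes, at 710.4, 655, 566 and 792 CPM against at most 93.9. Abcb10, a mitochondrial transporter that supports haem formation, had a log2 ratio of 7.34, and Uros, which closes the ring, overlapped through 9.13 CPM in well 13.

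Of 20 membrane genes with at least 30 reads over the 16 wells, 12 had no read in the 12 other E14.5 wells. Over all 10414 genes tested, 357 had none there. A gene with no read there met the minimum only through the 4 wells, so nothing is read from that count. Of the 20 genes, 17 were at least 4-fold higher and none was at least 4-fold lower. Slc4a1, on which the wells were chosen, is one of these genes, and without it the counts are 16 of 19 higher and 11 with no read. The median log2 ratio was 6.80, or 9.07 with genes absent from the other wells set at the floor of 3 reads over the group. The sides did not overlap for 7 genes, Slc4a1 included, or for 12 without well 8, in which several membrane genes had no read. The summed level was 9681, 5815, 4516 and 11657 CPM against 151.6 to 1033 CPM.

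These cells were gated as Ter119 negative, and surface protein was not measured in these files. Rhd and Rhag encode subunits of the Rh complex of the red cell membrane. Rhd (chr4:134864536-134896172) stood at 2478, 1710.0, 702 and 3245 CPM with 4 reads in the 12 others, and Rhag (chr17:40811126-40840754) at 725, 624, 245 and 946 CPM with 1 read in the others.

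The membrane set was not the same in all 4 wells. Kel, the Kell blood group protease, stood at 1128, 0, 182.7 and 1832 CPM, and Ermap, another blood group protein, at 336, 0, 161.1 and 725 CPM. Sptb, the beta chain of the spectrin skeleton, stood at 140.3, 0, 620.3 and 132 CPM. None of these 3 genes had a read in the 12 others, which puts their pooled levels at least 3678-fold, 1483-fold and 1379-fold higher. Well 8 had no read of any of them, although its Rhd level was within the range of the other 3 wells. Epb42, the protein that anchors band 3 to the skeleton, stood at 509, 7.12, 0 and 312 CPM, so it was well 13 that lacked it. In all, 20, 11, 12 and 19 of the 20 membrane genes had a read in wells 3, 8, 13 and 16, against 1 to 4 in the others.

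Of 5 further genes with red cell restricted use, all 5 were at least 4-fold higher and 3 had sides that did not overlap. The count of higher genes was 4 of 5 without well 3 and 4 of 5 without well 16. Without well 13 only 4 of the genes had enough reads, and all 4 were higher. Hemgn, which encodes the nuclear protein hemogen, stood at 2753, 339.8, 119 and 1385 CPM with no read in the 12 others, at least 5399-fold higher. Cldn13, a claudin of mouse red cell precursors, stood at 570.1, 3.05, 373 and 1044 CPM with 1 read in the others. Tspo2, an erythroid membrane protein of the translocator family, stood at 199.2, 109, 0 and 1394 CPM with no read in the others. Cd24a, the heat-stable antigen, was not restricted in these wells: it stood at 2462, 955, 737 and 2701 CPM and was read in 11 of the 12 others, at up to 645 CPM.

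The promoter stretches of 4 erythroid list genes with large ratios and sides that did not overlap are shown because GATA1 and KLF1 are the best known regulators of such genes and both were read in all 4 wells. Slc4a1, Cldn13 and Fech are named only. Each line gives the 100 bases before the RefSeq transcription start, 5′ to 3′ on the gene's strand, build GRCm38.p6. Capitals mark GATA strings (GATAA or GATAG, each preceded by A or T) and the KLF-type string CCNCNCCC, searched on both strands, and some neighbouring KLF matches overlap.
Alas2 (chrX:150547317-150547416, plus strand): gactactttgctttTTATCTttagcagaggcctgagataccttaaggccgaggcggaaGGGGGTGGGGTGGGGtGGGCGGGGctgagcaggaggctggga
Rhd (chr4:134864436-134864535, plus strand): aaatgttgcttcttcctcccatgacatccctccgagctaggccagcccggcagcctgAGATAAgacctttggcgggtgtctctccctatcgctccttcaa
Hemgn (chr4:46404184-46404283, minus strand): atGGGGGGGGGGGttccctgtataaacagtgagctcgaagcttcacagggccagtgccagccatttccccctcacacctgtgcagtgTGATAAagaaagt
Rhag (chr17:40811049-40811148, plus strand): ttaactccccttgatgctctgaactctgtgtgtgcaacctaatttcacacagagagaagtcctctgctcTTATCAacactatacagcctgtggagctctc
Each stretch held 1 GATA string. The KLF-type string had 4 matches in Alas2 and 4 in a run of G in Hemgn, and none in the stretches of Rhd and Rhag. Within 250 bases before to 50 after the start, a GATA string was found in 29.8% and a KLF-type string in 49.5% of all 32851 RefSeq promoters. Of the 27 erythroid genes whose sides did not overlap, 16 had entries, with 19 promoters, and 8 of these (42.1%) held a GATA string and 13 (68.4%) a KLF-type string. Of the 36 other genes with sides apart, 30 had entries, with 38 promoters, and 8 of these held a GATA string and 30 a KLF-type string. A match is a string of letters, not a measured binding site.

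**Figure D2:**
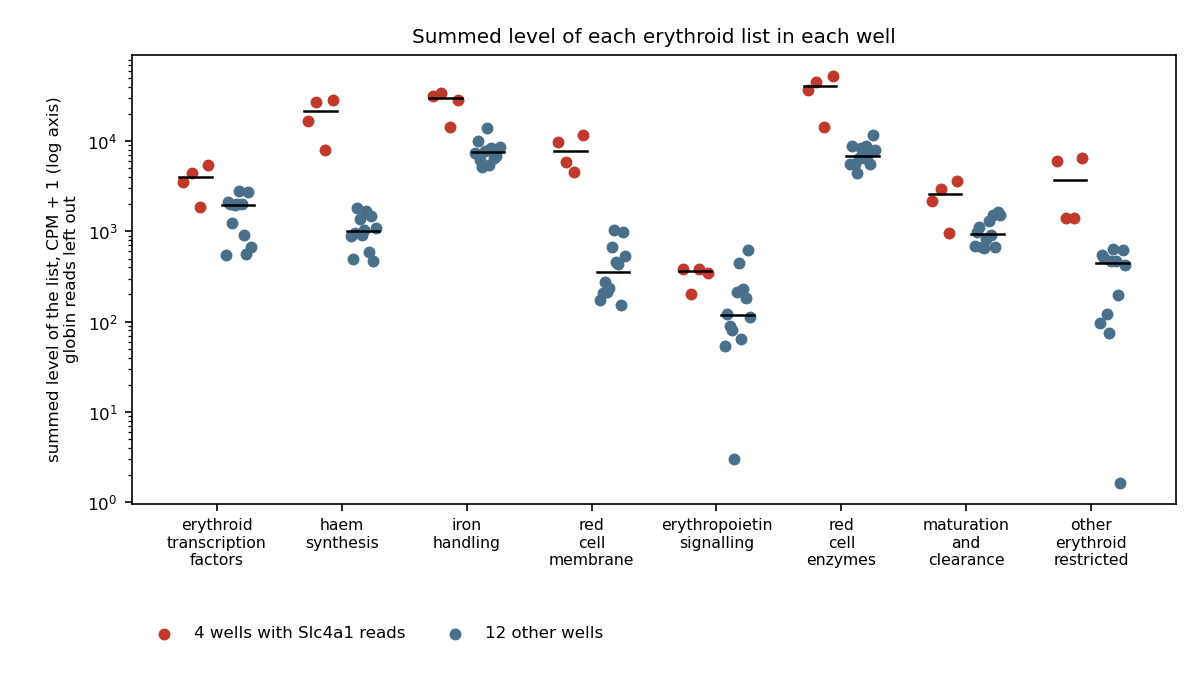
Summed level of each erythroid list in each well, as CPM + 1 on a log axis with globin reads left out, with 4 wells with Slc4a1 reads and 12 other wells per list and the median as a bar. Every well of the 4 is above every other well for haem synthesis, iron handling, red cell membrane, red cell enzymes and the restricted genes, and the sides overlap for transcription factors, erythropoietin signalling, and maturation and clearance.

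Iron genes were mixed. Of 10, 5 were at least 4-fold higher and 2 at least 4-fold lower, and the 2 lower ones were the only erythroid list genes so classed. The 2 of 88 became 4 without well 8, where the iron genes among them were still 2. They became 4 of 86 without well 13, where 3 were iron genes. Slc25a37, the mitochondrial iron importer mitoferrin 1, stood at 703, 214.6, 289 and 798 CPM against at most 75.4. Tfrc, the transferrin receptor that brings iron into the cell, stood at 165.4, 44.8, 84.7 and 201.1 CPM and was read in 2 of the 12 others at up to 103 CPM, so the sides overlapped. Glrx5, a glutaredoxin of iron-sulphur cluster assembly, was read in all 16 wells, at 2165, 1881, 911 and 1927 CPM against 103 to 649. The ferritin heavy chain gene Fth1 was also read in every well, at 9588, 11705, 4056 and 5269 CPM against 1451 to 3795. The lower genes were Slc40a1, the iron exporter ferroportin, and Slc25a28, mitoferrin 2. Neither had a read in the 4 wells, and among the others Slc40a1 was read in well 7 only and Slc25a28 in 3 wells.

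Few genes of erythropoietin signalling reached 4-fold. Of 8 genes, 2 were at least 4-fold higher, against 10.5% of all genes tested, and the summed levels overlapped. The count was 1 of 7 without well 3, 3 of 8 without well 8 and 3 of 7 without well 13. It was 3 of 8 with median-of-ratios size factors and 3 of 8 with the mean of the wells' CPM. Epor, the erythropoietin receptor, was read in wells 3 and 16 at 101 and 153.1 CPM, and in other well 9 at 134 CPM. Bcl2l1, the survival factor Bcl-xL, stood at 3.76, 193.3, 218.4 and 128 CPM against at most 136. Erfe, the hormone by which red cell precursors signal iron demand, was read in well 3 alone, at 137 CPM.

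Several red cell enzymes were read in every well, at higher levels in the 4. Of 10 genes, 6 were at least 4-fold higher and none lower, with sides apart for 3. Blvrb, a biliverdin reductase abundant in red cells, stood at 2750.3, 4654, 399 and 2687 CPM against a median of 0.307 and a highest of 162.9. Prdx2, the main peroxiredoxin of red cells, stood at 6686, 11225, 3261 and 13263 CPM against 676 to 1590.2. Car2, carbonic anhydrase 2, stood at 7657, 11779, 3239 and 13609 CPM against 511 to 2529. Well 13 was the lowest of the 4 for these 3 enzymes. Gpx1, a glutathione peroxidase, overlapped because well 13 was at 6813 CPM and other well 10 at 6895. Gclm, which serves glutathione synthesis, stood at 303, 205.5, 0 and 493 CPM against at most 65.7.

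Genes of terminal maturation were less uniform. Of 11, 3 were at least 4-fold higher and none had sides apart. Trim10, an erythroid ubiquitin ligase gene, stood at 677, 878, 0 and 806 CPM with no read in the 12 others, at least 2922-fold higher. Fbxo7 stood at 318, 599, 0.83 and 406 CPM against at most 176.97, and the third gene, Ube2o, reached 77.2 CPM in well 16. With well 13 left out, 3 genes of this list had sides apart. The mitophagy receptor gene Bnip3l, which serves the loss of mitochondria, had a log2 ratio of 0.94.

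Well 13 stood apart from wells 3, 8 and 16 in these lists. It held the most Slc4a1 and the least globin, Klf1, Gata1, Alas2 and Blvrb, and no read of Trim10, Tspo2, Epb42 or Gclm. Without it, 37 of the erythroid genes had sides apart in place of 27, and over all genes the number rose too, from 63 to 104. Without well 8 these numbers were 32 and 93. The median erythroid log2 ratio of each well against the pooled 12 was 2.61, 1.62, 1.07 and 3.03.

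The gate genes Kit, Ly6a, Slamf1 and Cd48 were read in some wells of each side. Kit, which encodes c-kit, stood at 71.4, 0, 337 and 228.96 CPM against a median of 128 and a highest of 349.8. Ly6a, which encodes Sca-1, stood at 181.7, 97.7, 66.4 and 184.7 CPM and was read in 8 of the 12 others. Slamf1, which encodes CD150, stood at 0, 295, 535 and 0 CPM, and of the 12 others only wells 4 and 9 had a read. Cd48 stood at 27.6, 0, 58.1 and 0 CPM and was read in 4 of the 12 others, at up to 533 CPM. The log2 ratios of Kit and Ly6a were 0.18 and 0.42, and their sides overlapped. Ly76 was not analysed here.

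Most stem cell genes were read on both sides. Of 39 with at least 30 reads, 4 were at least 4-fold higher, 5 at least 4-fold lower and 30 between, and the sides did not separate for any. Over all genes tested, 10.5% were at least 4-fold higher and 29.8% at least 4-fold lower. The count of higher stem cell genes is thus near the share over all genes and that of lower ones is below it. The count of lower genes was 10 without well 3, 9 without well 13 and 8 without well 16. The count over all genes rose in the same settings, to 3883 of 10266, 3503 of 10294 and 3661 of 10279, from 3107 of 10414. The median log2 ratio was -0.01, with -0.26 for the mean of the wells' CPM and 0.12 after thinning, so the sign of the pooled value changed with the setting. All genes had -0.60. Each well alone against the pooled 12 had a negative stem cell median, -0.84, -2.99, -0.84 and -1.94, where all genes had -1.60, -2.98, -2.61 and -2.15. A single well misses many genes that a pool holds: each of the 12 others against the remaining 11 gave stem cell medians of -3.97 to 0.61. The summed level was 4447, 5486, 6364 and 4826 CPM, within 3077 to 10878 CPM in the others. Of the 39 genes, 27, 17, 22 and 24 reached 10 CPM in the 4 wells, against 16 to 31 in the others. After thinning, 30, 20, 28 and 24 had a read against 19 to 32. The same wells therefore held most of the erythroid list and a number of stem cell genes within the range of the other wells of the gate. No doublet call was made: 1 cell with both sets and 2 cells in a well cannot be told apart from these counts.

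**Figure D3:**
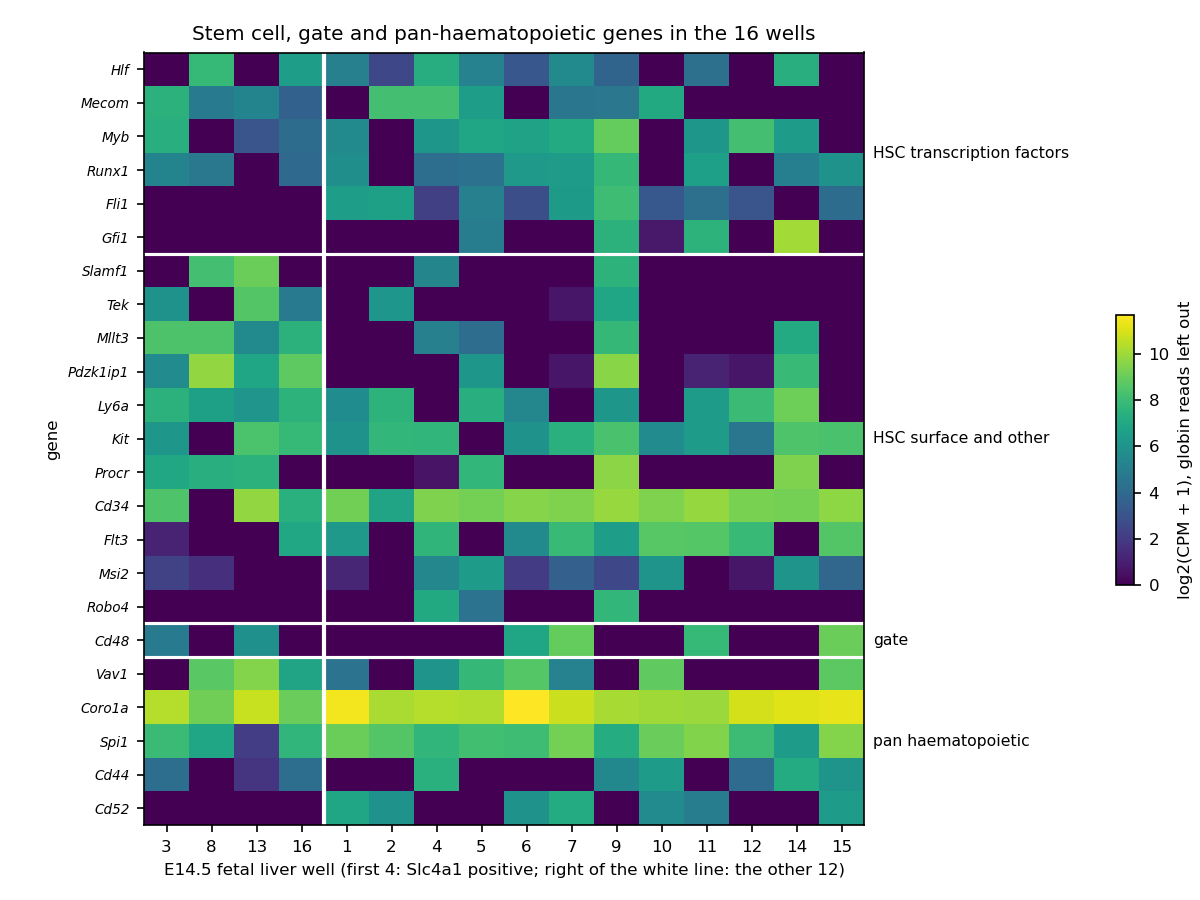
Level of 17 stem cell genes, 5 pan-haematopoietic genes and the gate gene Cd48, those named in the text, as log2(CPM + 1) with globin reads left out, in the 4 wells with Slc4a1 reads (left of the white line) and the other 12. Kit, Ly6a and Slamf1, also gate genes, stand among the stem cell genes. Gfi1, Fli1, Robo4 and Cd52 are dark in all 4 wells, and most other rows have reads on both sides.

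The 5 lower genes were Gfi1, Fli1, Robo4, Msi2 and Flt3. Gfi1, a repressor that restrains stem cell proliferation, and Fli1, an ETS factor of stem cells and megakaryocytes, had no read in the 4 wells. Fli1 was read in 11 of the 12 others at up to 262 CPM, which makes it at least 68.6-fold lower, and Gfi1 in 5, at up to 1082 CPM. Robo4, a guidance receptor of stem and endothelial cells, was read in 3 of the 12 others and in none of the 4. Flt3, a receptor of multipotent and lymphoid progenitors, was read in 9 of the 12 others at up to 397 CPM, and in the 4 wells at 1.25, 0, 0 and 124 CPM. Msi2, an RNA-binding protein of stem cells, had 5 reads in the 4 wells and was read in 10 of the 12 others.

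Among the 4 higher genes were Slamf1, Tek and Mllt3. Mllt3, which maintains human stem cells in culture, was read in every one of the 4 wells, at 345, 339, 45.7 and 180.9 CPM, and in 4 of the 12 others at up to 219.3 CPM. Tek, the angiopoietin receptor Tie2, stood at 62.6, 0, 380.3 and 27.8 CPM against at most 119. Pdzk1ip1, a small membrane protein of stem cells, had a log2 ratio of 1.93 with levels of 48.9, 885, 119.6 and 436 CPM.

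Another 3 stem cell genes were named after their values had been seen. Mecom, the stem cell factor Evi1, stood at 181.7, 26.4, 38.2 and 11.4 CPM and was read in 6 of the 12 others. Procr, which encodes EPCR, stood at 127, 166.8, 184.3 and 0 CPM and was read in 4 of the 12 others. Cd34 stood at 357, 0, 878 and 169.5 CPM, against a lowest of 113 and a median of 687 in the others. Wells 8 and 16 each had reads of 2 of these 3 genes and wells 3 and 13 of all 3.

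Runx1 and Myb, factors needed for stem cell emergence and for definitive progenitors, had log2 ratios of -1.75 and -1.73. Runx1 stood at 37.6, 24.4, 0 and 15.2 CPM against a highest of 221.7 in the others, and Myb at 157.9, 0, 7.47 and 16.4 CPM against a highest of 491. Hlf, a factor restricted to stem cells in blood, was read in wells 8 and 16 at 226.8 and 91.1 CPM and in 9 of the 12 others, at up to 161.8 CPM. None of these 3 factors separated the sides.

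Pan-haematopoietic genes were lower in summed level in 2 of the 4 wells than in any other well. The sum was 5065, 3909, 9310.0 and 3505 CPM against 4706 to 10913. Of 14 genes, 2 were at least 4-fold lower, Cd52 and Cd44, and none at least 4-fold higher, against 29.8% and 10.5% of all genes tested. The count of lower genes was 1 without well 8 or with median-of-ratios size factors. It was 3 without well 3, without well 13 or without well 16. Spi1, which encodes PU.1 and opposes GATA1 in lineage choice, stood at 253, 118, 3.32 and 207.5 CPM against 86.0 to 723 in the others, with a log2 ratio of -1.66. Coro1a, an actin regulator of leukocytes, stood at 1336, 562, 1676 and 511 CPM against 989.7 to 3305. Vav1, a leukocyte signalling protein, stood at 0, 421, 746 and 114 CPM against a median of 27.9. Of 10 MHC class I genes, none reached 4-fold either way. H2-K1 stood at 230.5, 514, 1632 and 587 CPM and B2m at 291, 556, 1289.5 and 379 CPM, and well 13 was the highest of all 16 wells for both.

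Granulocyte genes were mixed, and most macrophage genes had no read in the 4 wells. Counts of lower genes in the lineage lists are small and stand against 29.8% of all genes tested. Of 8 myeloid genes, none was at least 4-fold higher and 4 were at least 4-fold lower, or 6 without well 3. Mpo, the granule peroxidase of neutrophil precursors, had 1 read in the 4 wells, in well 3, and was read in 9 of the 12 others at up to 3417 CPM. Its pooled level was 3864-fold lower (95% interval 693 to 152632). Fcgr3, Irf8 and Ms4a3 were the other 3. Lyz2, lysozyme, was an exception, at 657, 778, 1534 and 165.7 CPM against a median of 383, and Prtn3, proteinase 3, was read in all 4 wells at 133 to 338 CPM and in 11 of the 12 others.

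Of 7 macrophage genes, 6 were at least 4-fold lower, and 5 of these, Hmox1, C1qa, C1qb, C1qc and Timd4, had no read in the 4 wells. C1qa, C1qc and Timd4 were read in 1 other well, well 7, which also held the highest Hmox1 and C1qb levels. The summed macrophage level was 72.7, 0, 180.2 and 0 CPM in the 4 wells and 0 to 2850.3 CPM in the others, with a median of 133. In well 13 all of it was Dnase2a, the nuclease with which macrophages digest expelled nuclei, and in well 3 all of it was Cd68. Red cells of the fetal liver mature around macrophages, and the defining markers C1qa, C1qb and C1qc stood at 0 in the 4 wells. An absence of reads here allows up to 0.795 CPM in the pooled 4 wells, by 3 reads of 3775954.

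**Figure D4:**
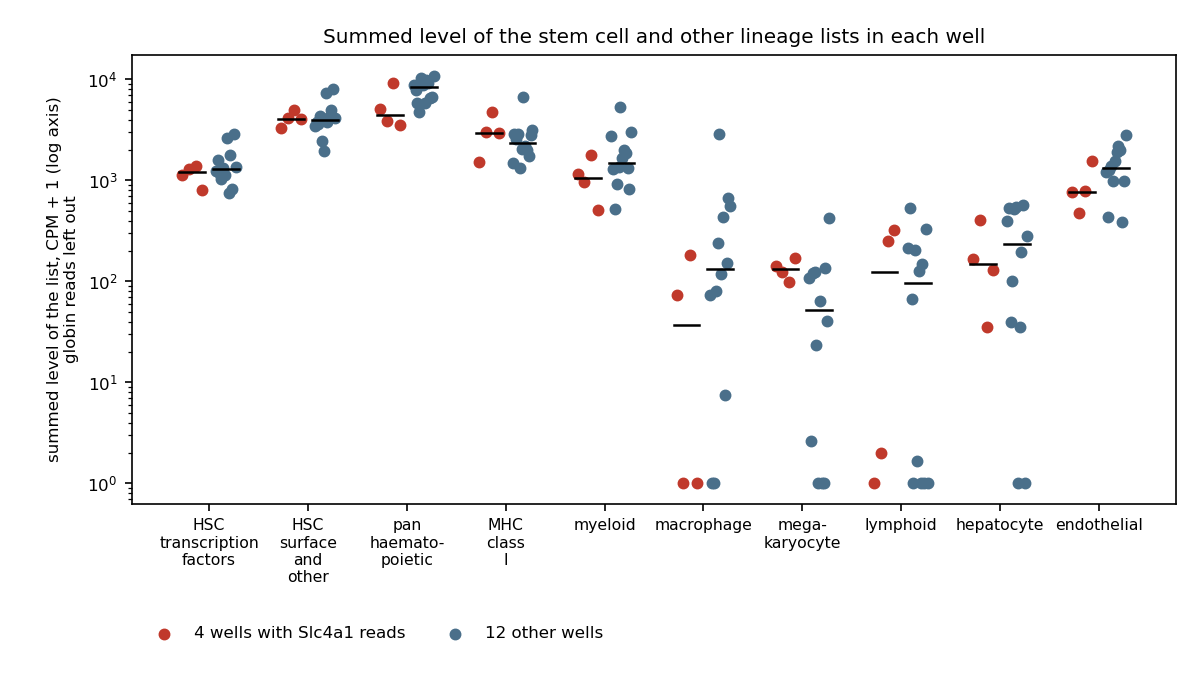
Summed level of the stem cell, pan-haematopoietic, MHC class I and other lineage lists in each well, as CPM + 1 on a log axis with globin reads left out, with 4 wells with Slc4a1 reads, 12 other wells and the median of each as a bar. The sides overlap in every list shown, and 2 of the 4 wells have no macrophage read.

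Megakaryocytes share regulators with red cells. Of 7 megakaryocyte genes, 1 was at least 4-fold higher and 3 at least 4-fold lower, against 10.5% and 29.8% of all genes tested. The higher gene was Tubb1, a platelet tubulin, read in wells 3 and 16 at 25.1 and 166.98 CPM and in none of the others. The count of higher genes was 2 without well 8 and 2 without well 13. The lower genes, Itga2b, Pf4 and Treml1, had no read in the 4 wells. Of 4 lymphoid genes, 2 were higher, Lck and Notch1, both from well 13 alone, and without that well none was. Of 8 endothelial genes, 3 were at least 4-fold lower, Sox18, Tie1 and Ramp2, or 1 without well 13 and 1 with median-of-ratios size factors, and Tek was higher, though not without well 13. Of the defining endothelial genes, Cdh5 had 4 reads and Kdr 1 read over the 16 wells, and Lyve1 and Stab2 had none. Other genes of this list were well read. Egfl7 was read in all 16 wells, at 468.6, 309.2, 394.4 and 193.5 CPM against 127.04 to 1602.2 CPM in the others. Esam stood at 109.0, 0, 1.66 and 929.8 CPM against at most 1005.4 CPM. The summed endothelial level was 472.0 to 1571.1 CPM in the 4 wells, within 383.6 to 2794.9 CPM in the others.

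Of 3 hepatocyte genes with at least 30 reads, Dlk1, a marker of fetal liver cells, was at least 4-fold lower. Krt18 was read in wells 3 and 8, at 112.8 and 403.9 CPM, against at most 263.7 CPM in the others. Trf was read in well 16 alone of the 4, at 127.8 CPM. The sides overlapped for all 3 genes. The summed hepatocyte level was 34.04 to 403.9 CPM in the 4 wells, within 0 to 571.4 CPM in the others. The defining hepatocyte genes Afp, Apoa1 and Ttr had no read in any of the 16 wells. Of the mesenchymal genes, Sparc had no read in the 4 wells, and Col1a1 and Pdgfra none in any of the 16. Of the mast cell and basophil genes, Srgn alone had at least 30 reads, with a log2 ratio of 0.53, and the mast cell protease gene Cpa3 had 9 reads over the 16 wells.

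Cell cycle genes divided the 4 wells. The summed level of 15 S phase genes was 14285, 12140, 7738 and 2004 CPM against 1627 to 10905 in the others, so wells 3 and 8 stood above every other well and well 16 near the bottom. For 16 G2/M genes the order turned: 6538, 3536, 2144 and 16559 CPM against 429 to 10199, and well 16 was the highest of all 16 wells. Rrm2, a subunit of the enzyme that makes DNA precursors, stood at 3323, 2876, 257 and 453 CPM against at most 830.3. Ube2c, which serves the anaphase complex, stood at 1213, 507, 590.4 and 5044 CPM, and the mitotic cyclin gene Ccnb2 at 526, 374, 414 and 2116 CPM. Cdkn2d, a cyclin kinase inhibitor, stood at 506, 748, 0 and 1799 CPM against at most 395. Of the 15 S phase genes 2 were at least 4-fold higher, or 1 without well 8, and 1 was at least 4-fold lower. Of the 16 G2/M genes 2 were higher and none lower. That G2/M count was 1 without well 16 or with globin reads in the totals. It was 3 without well 13 or with median-of-ratios size factors. Over all genes tested 10.5% were higher and 29.8% lower, so both counts of higher genes are near the share over all genes.

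**Figure D5:**
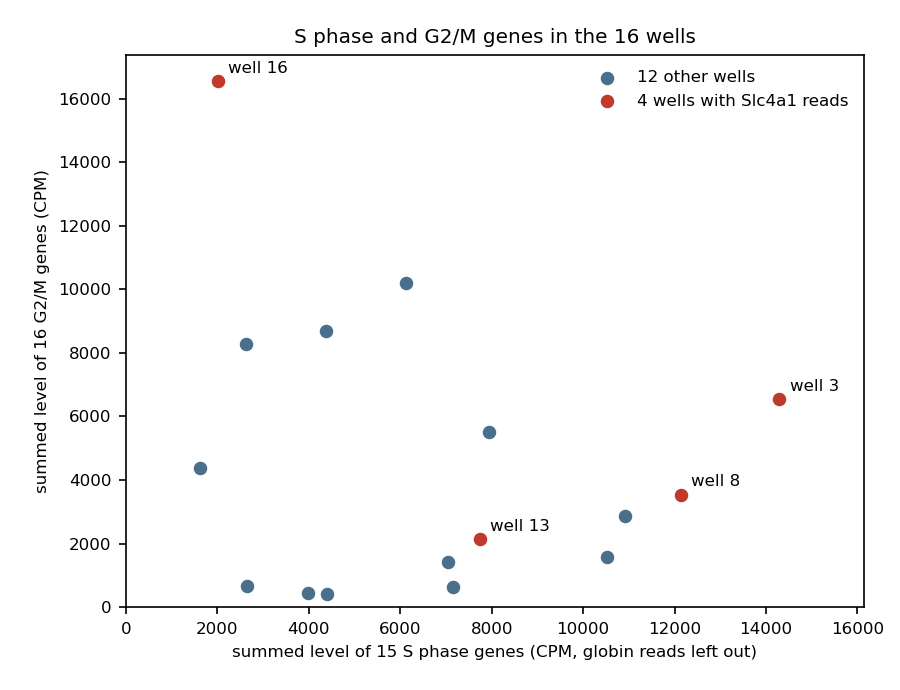
Summed level of 15 S phase genes (x axis) and 16 G2/M genes (y axis) in each of the 16 wells, in CPM with globin reads left out. Wells 3 and 8 lie to the right of all other wells at 14285 and 12140 CPM, and well 16 lies at the top left at 2004 and 16559 CPM.

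Outside the lists, the genes of largest ratio read in all 4 wells included Fam210b, Slc38a5, Smim1, Ift140, Lmna, Nxpe2, Mt2, Mt1, Nt5c2, Cdc25b and Ube2l6, and for each of them the sides did not overlap. Fam210b, a mitochondrial protein of red cell precursors, stood at 766, 333, 388 and 854 CPM with 1 read in the others. Smim1, which carries the Vel blood group antigen, stood at 339.6, 705, 151.1 and 155.6 CPM, and Slc38a5, a glutamine transporter, at 677, 375, 317 and 256 CPM, both with no read in the others. Mt1 and Mt2 encode metallothioneins that bind zinc. Mt1 stood at 1505, 3118, 479 and 1751 CPM against at most 60.1, and Mt2 at 349.6, 598, 164.4 and 185.95 CPM against at most 14.4. Lmna, lamin A, stood at 327, 490.3, 78.9 and 87.3 CPM with no read in the others. Cdc25b, a phosphatase that starts mitosis, was highest in well 13, at 114, 313, 390.3 and 138 CPM.

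The 12 genes of lowest ratio outside the lists were Tpst2, Tmed1, Tespa1, Myo1g, Coro1c, Ncbp2, Tcn2, Pstpip1, Trappc13, Suv39h1, Suclg2 and Mipep. Each was read in 6 to 11 of the 12 others, and 11 of them had no read in the 4 wells, while Suclg2 had 1. Tpst2, a tyrosine sulphotransferase, was read in 10 of the 12 others at up to 643 CPM and was at least 402-fold lower. Myo1g, a myosin of blood cells, was at least 194.3-fold lower. Over all genes tested, 2510 had no read in any of the 4 wells and 357 none in any of the 12, so absence from 4 wells was common.

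For 7 genes, 0.0672% of those tested, every one of the 4 wells lay below every other well, and these were named after their values had been seen: Cebpb, Gimap9, Idh2, Ndufb6, Pgam1, Pgls and Zfp706. Idh2, a mitochondrial isocitrate dehydrogenase, stood at 781, 614, 537 and 343 CPM against 874 to 2323. Pgls, an enzyme of the pentose phosphate pathway, stood at 125, 68.2, 71.4 and 54.4 CPM against 137 to 781. Pgam1, a glycolytic mutase, stood at 36.3, 0, 0 and 10.1 CPM against 42.4 to 588. Cebpb, a myeloid transcription factor, had 1 read in the 4 wells and was read in all 12 others.

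With the erythroid lists left out, wells 8, 13 and 16 each correlated best with well 3, with Pearson r of 0.438, 0.402 and 0.454 across 7687 genes. Well 3 itself correlated best with other well 5, at 0.457. These are correlations across genes of single libraries that share an amplification method, and genes are not independent replicates.

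The erythroid list as a whole was not restricted to the 4 wells. Of its 97 genes in the table other than Slc4a1, 73, 55, 57 and 70 reached 10 CPM in wells 3, 8, 13 and 16, and 21 to 38 in the other 12 E14.5 wells. The count was 18 to 51 in the aorta-gonad-mesonephros wells, 18 to 56 in the yolk sac wells and 10 to 52 in the E12.5 liver wells, so 1 yolk sac well passed well 8. The more restricted genes were rarer outside the 4 wells. Alas2, Rhd, Rhag, Klf1, Gata1, Fech and Hemgn, picked after their values had been seen, all reached 10 CPM in each of the 4 wells, and at most 2 of these 7 did so in any well of the other groups. That contrast follows in part from how the genes were picked. In the E12.5 liver Alas2 reached 198.7 CPM in well 15, and Gata1 and Klf1 stayed under 10 CPM in all 16 wells. E12.5 well 8 held Blvrb at 2426 CPM, within the range of the 4 wells, together with Rhd at 636 CPM and a globin share of 1.34%. It was the shallowest library of that group, with 250235 reads, and 10 of the 97 genes reached 10 CPM in it. Fech, read in 14 of the 48 aorta-gonad-mesonephros wells, was the least restricted of the 7.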

How the data were processed

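Single cells were sorted into wells, their RNA was amplified by SMART-Seq, and the cDNA was made into transposome libraries with 12 PCR cycles, per the labels' protocols. The authors deposited 1 table of raw read counts per gene for 96 wells, and all 96 columns were matched to samples by name. The submitters' processing notes name FastQC, Trimmomatic 0.36, STAR, HTSeq and build mm10, with no role or order, and the annotation and strand setting are not given in the sources used here. Without a strand setting, reads of overlapping and antisense genes cannot be told apart.

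From the deposited counts, rows sharing a symbol were summed (19949 rows, 19836 genes), the reads of 8 globin genes were left out of the totals, and CPM was computed with Python 3.11.15, pandas 2.3.3, numpy 2.4.6 and scipy 1.17.1. Reads were pooled over the 4 wells and over the 12, and genes with at least 30 reads over the 16 wells were compared as log2 ratios after 1 CPM was added, with at least 4-fold as the size named. Where a side had no read, the bound of the fold was taken against 3 reads summed over the side, which is 0.795 CPM for the 4 wells and 0.185 CPM for the 12. In 1 well 3 reads are 1.56 to 4.79 CPM. The calculation was tested on simulated data. No test was made, because the labels name no animal and the wells were divided by an outcome.

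The members and the gene lists were chosen with earlier results of these data known. Named genes were at most 8 per list, by largest absolute log2 ratio, and the gate genes. Outside the lists they were the 12 with the largest ratio that had a read in all 4 wells and at most 60% of that side's reads from 1 well. The 12 with the lowest ratio had reads in at least 6 of the other wells and at most 50% of that side's reads from 1 well. Neither set took predicted, mitochondrial, ribosomal protein or sex-linked genes. Several genes that met these criteria are not reported here. Other genes named are said to have been chosen after their values were seen. Positions are from GENCODE vM21 and promoter sequences from RefSeq, both on GRCm38. Alternatives changed the totals, scaling, pooling, depth, added CPM, read minimum and Slc4a1 threshold, and left out each well in turn.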

Additional observations from a re-analysis of the deposited data

Results flagged for a closer look

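For 106 measures printed for the 4 wells, the highest and the lowest well were compared with the nearest of the other 3, and in 17 of them 1 well lay far from the rest. For normally distributed values, chance puts about 1 in 20 such groups past the limit used. CPM values of single cells are skewed and hold zeros, so that rate is no baseline for the 17. Genes absent from 3 of the 4 wells always pass the limit.

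Well 16 stood apart for 8 genes. Of erythroid list genes these were Nfe2 at 1829 CPM against 530.0 to 749 in the other 3 wells, Tspo2 at 1394 CPM against 0 to 199.2, and Ube2o at 77.2 CPM against 0 to 2.03. Of stem cell list genes it was Flt3 at 124 CPM against 0 to 1.25. The mitotic genes Ube2c at 5044 CPM against 507 to 1213 and Ccnb2 at 2116 CPM against 374 to 526 were also high in this well. So were Tubb1 at 166.98 CPM against 0 to 25.1 and Ift140, a gene of cilium transport, at 1586 CPM against 375 to 541.

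Well 3 stood apart for Sox6 at 118 CPM against 0 to 10.1, Mecom at 181.7 CPM against 11.4 to 38.2 and Myb at 157.9 CPM against 0 to 16.4. It was the only well of the 4 with a read of Erfe (137 CPM) or Cd68 (72.7 CPM). Well 13 stood apart for Tek at 380.3 CPM against 0 to 62.6, and alone had reads of Dnase2a (180.2 CPM), Lck (221.7 CPM) and Notch1 (25.7 CPM).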

How the results depend on the processing

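Over 9 alternatives to the totals, pooling, added CPM, depth, scaling and read minimum, 49 of 54 values of the 6 main results moved little. Little means less than 1.5 times for counts and less than the spread between wells for medians. That spread, a standard deviation over the 4 wells, was 0.897 for the erythroid and 1.031 for the stem cell median log2 ratio. A change of sign in the stem cell median can therefore stay within it. The 5 values that moved further were these. With 10 CPM added, 483 genes were at least 4-fold higher and 796 lower, in place of 1094 and 3107, higher genes made up 37.8% of the calls in place of 26.04%, and the erythroid median log2 ratio was 2.18. With at least 300 reads, 450 genes were higher and 1495 lower, from fewer genes tested. An alternative with a floor of 3 reads a side was chosen after seeing the data, and a Slc4a1 threshold of 1000 CPM left 0 wells and gave no value. The 2 other thresholds tried, 10 CPM and non-globin totals, take the same 4 wells and so give the same values by construction. Leaving out each of the 16 wells in turn gave 958 to 1185 genes higher, 2993 to 3883 lower, 49 to 57 erythroid genes higher, 5 to 10 stem cell genes lower, an erythroid median of 2.74 to 3.18 and a stem cell median of -0.33 to 0.21. No paired analysis was possible because the wells share only label numbers across groups and no result comes from a test. Depth limits the absences: a gene with no read in 1 well may lie at up to 1.56 to 4.79 CPM, by counting error only, and losses in amplification were not measured.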

Other observations

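Of 4 Y-linked genes in the table, 3 had a read in well 3, 1 in well 16 and none in wells 8 and 13, and 0 to 3 had a read in the other 12 wells.

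Well 9, one of the 2 other wells with Klf1 reads, held the highest level among the 12 other wells of Epor (134 CPM), Blvrb (162.9 CPM), Pdzk1ip1 (787 CPM), Procr (819 CPM) and Slamf1 (188.4 CPM). Its Gata1 and Slc4a1 levels were 0, and these genes were picked after their values had been seen. Well 10, the other, held the highest level among the 12 of Klf1 (97.7 CPM), Uros (247 CPM) and Mt1 (60.1 CPM).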
